A study of Mus musculus with 8 samples.

Results

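The 10 antioxidant defence genes described here, *Sod1*, *Sod2*, *Cat*, *Gpx1*, *Gpx4*, *Prdx3*, *Txnrd2*, *Gsr*, *Nqo1* and *Nnt*, were taken by symbol from a table of 16994 genes. All 10 had a row in the table, and all 10 were among the 12999 genes tested, those whose CPM, the count relative to the library total, averaged at least 1. Bulk RNA sequencing of mouse hearts gave 8 libraries, 1 for each genotype in each of 4 regions. The regions were the left ventricle (LV), presented as a normal reference, and the infarct, border and remote zones of hearts with a permanent ligation of the left anterior descending coronary artery. The mice were male WT mice or mice without TIGAR in the whole body (TKO), from a line first made with a *Tigar* tm1a allele on C57BL/6N. The ligation was done at 16 weeks of age and the hearts were assessed 4 weeks later. RNA of 3 mice was pooled for each infarct zone library. The number of mice behind the other libraries, the strain of the WT and TKO mice and any operation on the LV mice are not given in the sources used here.

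Superoxide, a by-product of respiration, is turned into hydrogen peroxide by superoxide dismutases, and the peroxide is then removed by catalase, glutathione peroxidases and peroxiredoxins. Glutathione and thioredoxin are recharged by reductases that draw on NADPH, and in mitochondria the transhydrogenase NNT is a source of that NADPH. Heart muscle cells are packed with mitochondria and carry much of this machinery inside them. TIGAR is a phosphatase that lowers fructose-2,6-bisphosphate and can steer glucose towards the NADPH-making pentose phosphate pathway.

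The libraries held 27429240 to 33799249 estimated counts. Levels are given as scaled CPM, that is CPM after library sizes were adjusted with edgeR's TMM factors. These factors were 1.54 and 1.26 in the WT and TKO infarct zones and 0.866 to 0.956 in the other 6 libraries. *Tigar* had 1965, 1066, 2215 and 1997 counts in the WT LV, infarct, border and remote libraries and 51, 87, 79 and 87 in the same TKO libraries, so each label fitted its targeted gene. The 8 cardiomyocyte markers had counts in all libraries, with a summed level of 7872 scaled CPM in the WT infarct zone, 17420 in the TKO infarct zone and 27100 to 39330 in the other 6. In bulk tissue, fewer cells of a type and less RNA per cell cannot be told apart. Ratios between 2 libraries have no replicate, and their 95% intervals (exact Clopper-Pearson) cover counting error only.

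Of the 10 genes, *Gpx1*, *Gpx4* and *Txnrd2* encode selenoproteins, in which a TGA codon is read as selenocysteine, the residue that carries out the redox chemistry. The stretch of the spliced GENCODE M21 transcript around that codon is shown for each, 5′ to 3′, with the TGA in capitals. In the GRCm38 (mm10) build, the codons lie on the plus strand at chr9:108339451-108339453 (*Gpx1*, exon 1 of 2), chr10:80054737-80054739 (*Gpx4*, exon 3 of 7) and chr16:18477772-18477774 (*Txnrd2*, exon 17 of 17).
Gpx1: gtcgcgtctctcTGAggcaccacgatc
Gpx4: gtggcctcgcaaTGAggcaaaactgac
Txnrd2: gtgactggttgcTGAggctaagtcacc
These 3 genes share the codon and, as given next, differed in how their levels stood across regions.

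*Sod1* encodes the copper-zinc superoxide dismutase, found mainly in the cytosol, and *Sod2* the manganese enzyme of the mitochondrial matrix. *Sod1* (ENSMUSG00000022982, chr16:90220754-90226329) stood at 258.8, 118.1, 182.0 and 214.7 scaled CPM in the WT LV, infarct, border and remote libraries and at 252.2, 146.8, 210.3 and 212.4 in the TKO libraries. Both infarct libraries lay below the other 6, and the genotypes overlapped. *Sod2* (ENSMUSG00000006818, chr17:13006846-13040063) stood at 264.0, 63.14, 192.6 and 215.4 scaled CPM in WT and at 286.5, 111.2, 236.6 and 244.8 in TKO. The infarct libraries were again the lowest, and the TKO library was the higher one in each of the 4 regions. Of the 8 genes with a RefSeq promoter window (250 bases before to 50 after the start, GRCm38), only *Sod1* held the core of the antioxidant response element, TGACNNNGC searched on both strands. The match was on the minus strand, 56 bases before the start. It is shown in capitals within its plus-strand surroundings, chr16:90220691-90220729.
Sod1: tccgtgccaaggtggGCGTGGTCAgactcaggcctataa
The same core was found in 12.4% of all 32851 promoter windows and, counted by gene, in 14.0% of 27025 genes. The match is a description of the letters and not a site of binding.

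Catalase, the peroxisomal enzyme that splits hydrogen peroxide, is encoded by *Cat* (ENSMUSG00000027187, chr2:103453849-103485160). Its levels were 245.8, 91.03, 178.5 and 201.4 scaled CPM in the WT LV, infarct, border and remote libraries and 199.4, 138.8, 205.3 and 212.7 in the TKO libraries. The infarct libraries were the lowest of each genotype, and the WT LV was the highest of the 8. The 4 adipocyte markers summed to 30.72 scaled CPM in that WT LV library, to 0.541 in the TKO LV and to 2.46 to 6.74 in the other 6, with 1 of the 4 at 0 counts in each library but the WT LV. Their part in the *Cat* difference between the LV libraries was not tested.

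*Gpx1* (ENSMUSG00000063856, chr9:108338903-108340343) encodes the widely expressed glutathione peroxidase 1, and was the one gene of the 10 whose highest level was the infarct library in both genotypes. It stood at 56.67, 123.1, 78.60 and 82.49 scaled CPM in the WT LV, infarct, border and remote libraries and at 69.11, 94.52, 70.86 and 66.06 in the TKO libraries. Both infarct values lay above all 6 others. *Gpx4* (ENSMUSG00000075706, chr10:80047166-80056439) encodes the peroxidase that reduces lipid peroxides in membranes and so guards against ferroptosis. Its levels were 574.3, 289.5, 575.2 and 642.3 in WT and 663.6, 376.0, 600.2 and 585.3 in TKO. The infarct libraries were below the other 6, which overlapped between genotypes. *Prdx3* (ENSMUSG00000024997, chr19:60864051-60874556), the peroxiredoxin of the mitochondrial matrix, stood at 274.1, 74.22, 229.6 and 249.2 in WT and at 300.0, 135.2, 267.4 and 261.5 in TKO. It had the same order as *Sod2*: lowest in the infarct zones, and higher in TKO than in WT in every region.

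*Txnrd2* (ENSMUSG00000075704, chr16:18426384-18479073) encodes the mitochondrial thioredoxin reductase, which recharges the thioredoxin that in turn serves PRDX3. It stood at 17.59, 6.311, 12.95 and 14.00 scaled CPM in the WT LV, infarct, border and remote libraries and at 19.46, 9.287, 15 and 17.07 in the TKO libraries. It too was lowest in the infarct zones and higher in TKO in each region. *Gsr* (ENSMUSG00000031584, chr8:33652523-33698163), the glutathione reductase, stood at 22, 26.10, 23.76 and 22.71 scaled CPM in WT and at 28.03, 22.91, 21.04 and 17.64 in TKO. Its infarct values fell inside the range of the other regions, with the WT infarct zone the highest of the WT libraries and the TKO LV the highest of the TKO libraries.

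*Nqo1* (ENSMUSG00000003849, chr8:107388225-107403206) encodes a quinone reductase that is a classic target of the stress-responsive transcription factor NRF2. Its levels were 54.73, 25.43, 73.41 and 73.55 scaled CPM in the WT LV, infarct, border and remote libraries and 53.28, 35.33, 62.67 and 65.73 in the TKO libraries. It was low in both infarct zones and, unlike *Sod1*, *Sod2*, *Prdx3*, *Txnrd2* and *Nnt*, had its highest levels in the border and remote zones. *Nnt* (ENSMUSG00000025453, chr13:119335448-119408997) encodes the inner membrane transhydrogenase that makes NADPH from NADH. It stood at 416.3, 52.15, 215.2 and 282.5 in WT and at 372.9, 154.4, 347.1 and 317.3 in TKO. The WT libraries spread from 52.15 to 416.3, the widest span of the 10 genes, with the TKO libraries inside that span.

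**Figure D1:**
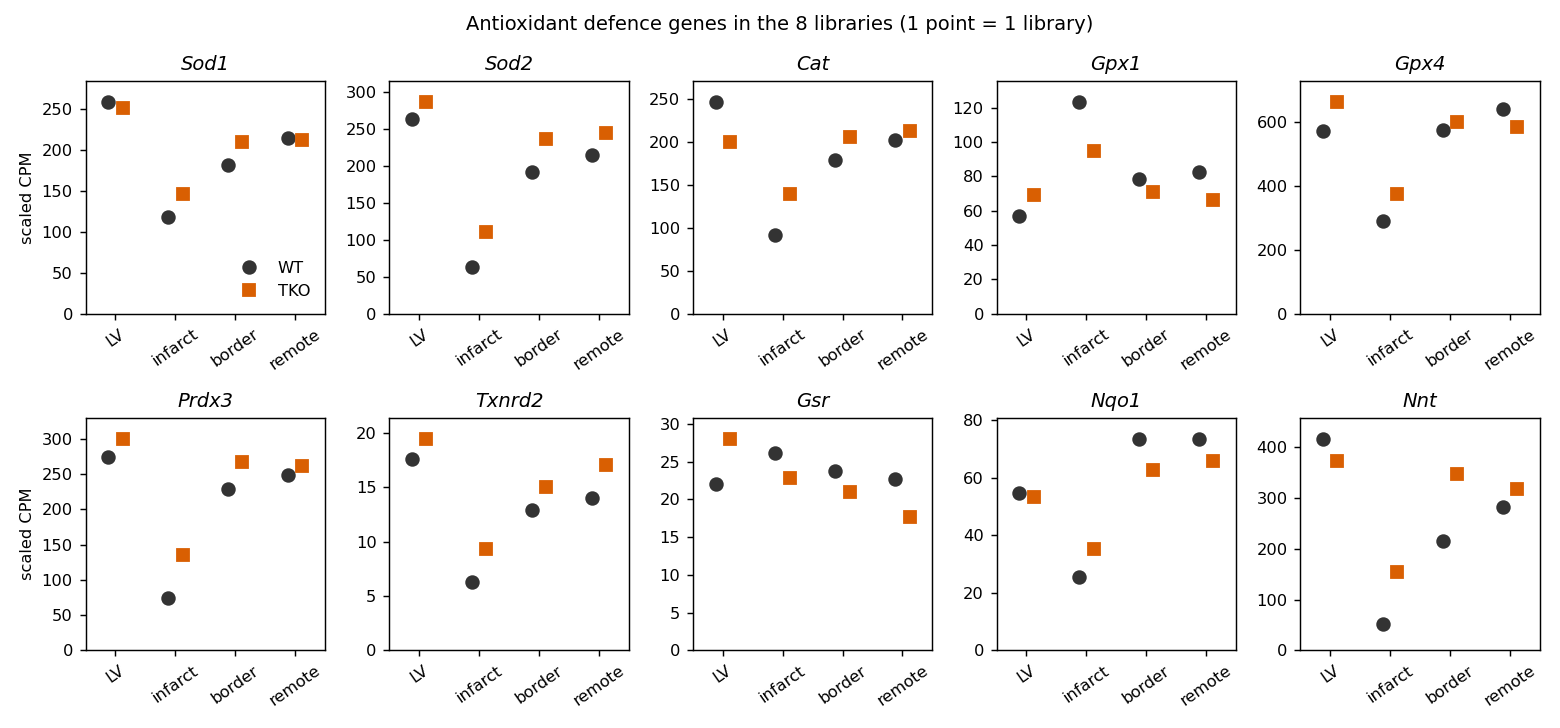
Scaled CPM (counts relative to the TMM-scaled library total, y axes from 0) of the 10 genes in the LV, infarct, border and remote libraries; circles are WT, squares TKO, and each point is 1 library, so there are no error bars. *Nnt* is at 416.3 in the WT LV and 52.15 in the WT infarct zone, *Gpx1* has its highest points (123.1 and 94.52) in the infarct zones, and *Gsr* stays between 17.64 and 28.03.

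Levels of different genes were compared only per kilobase of transcript. In the WT LV, *Gpx4* led with 598.8 scaled CPM per kilobase, followed by *Sod1* with 403.8, *Prdx3* with 185.4 and *Nnt* with 120.2. *Cat* (94.07), *Gpx1* (52.86), *Sod2* (45.04) and *Nqo1* (35.24) formed the middle of the order, and *Gsr* (8.232) and *Txnrd2* (6.12) its low end. The place of *Sod2* depends on the length used, since the annotated principal transcript has 5861 bases and the other coding transcript 451. *Cat* and *Txnrd2* carry the same limit, with principal transcripts of 2613 and 2874 bases and shortest coding transcripts of 779 and 491. With 1 library per group, whether neighbours in this order differ beyond the spread between mice cannot be told.

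The infarct zone was the region in which these genes departed most from the LV. The question was which defence genes differ between the infarct zone and the LV. It was tested over both genotypes with the quasi-likelihood test of edgeR, with p-values adjusted by Benjamini-Hochberg over all genes tested. The 2 genotypes stand in for replicates there, so the p-values bear on libraries and not on mice. Of the 10 genes, 8 were lower and 1 was higher in the infarct zone at an adjusted p of at most 0.05, with *Gsr* the exception. Over all genes tested, 56.8% passed, 28.5% lower and 28.3% higher, 7387 in all, and 4776 passed without the WT infarct library. The median infarct over LV fold was 0.512 for the 10 genes and 1.01 for all genes tested.

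*Nnt* had the lowest infarct over LV fold, 0.235 (log2 -2.09 ± 0.413 SE, adjusted p = 0.00646). *Sod2* stood at 0.308 (log2 -1.70 ± 0.199, adjusted p = 0.00103), *Prdx3* at 0.355 (adjusted p = 0.00188) and *Txnrd2* at 0.415 (adjusted p = 0.00079). Their products work mainly in the mitochondrial matrix or inner membrane. The other lower genes lay closer to 1, with *Cat* at 0.508 (adjusted p = 0.0085) and *Sod1* at 0.516 (adjusted p = 0.00216). *Gpx4* was at 0.536 (adjusted p = 0.00692) and *Nqo1* at 0.562 (adjusted p = 0.0071). The products of *Gpx1*, *Gpx4* and *Gsr* are found in both cytosol and mitochondria. *Gpx1* rose 1.71-fold (log2 0.78 ± 0.172, adjusted p = 0.00857), although without the WT infarct library its adjusted p was 0.0524. *Gsr* had a fold of 0.975 (adjusted p = 0.866).

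These calls depended in part on library scaling. With total counts alone, the median gene shifted by 0.71 on the log2 scale and 87.9% of the genes called were higher in the infarct zone, against 49.8% with TMM. *Nnt*, *Sod2*, *Prdx3* and *Txnrd2* were still called lower and *Gpx1* higher under total counts. *Sod1*, *Cat*, *Gpx4* and *Nqo1* were no longer called, with log2 changes of -0.27, -0.30, -0.22 and -0.16 (adjusted p = 0.0934, 0.126, 0.244 and 0.337), and *Gsr* was called higher (log2 0.64, adjusted p = 0.0146). The tally was thus 4 lower and 2 higher, and the median log2 change of the 10 genes was -0.29, against -0.97 with TMM.

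Against the border and remote zones of the ligated hearts, the infarct zone gave the same tally, 8 lower, 1 higher and *Gsr* not called (fold 1.15, adjusted p = 0.268). The share over all genes tested was 54.2%, with 26.5% lower and 27.7% higher, 7048 genes in all, and 3606 without the WT infarct library. *Nqo1* stood out here with a fold of 0.441 (log2 -1.18 ± 0.159, adjusted p = 0.00184), lower than its 0.562 against the LV. *Nnt* had a fold of 0.331 (adjusted p = 0.0124) and *Gpx1* one of 1.46 (adjusted p = 0.0183). The *Gpx1* call was lost without the WT infarct, WT border, TKO border or TKO remote library, with adjusted p values of 0.165, 0.0575, 0.0593 and 0.0709, and that of *Cat* (fold 0.572, adjusted p = 0.0119) without the WT infarct library, with 0.0795. Under total counts *Sod1*, *Cat*, *Gpx4* and *Txnrd2* were no longer called (adjusted p 0.882, 0.219, 0.139 and 0.0547), and *Gsr* was called higher (0.00141), which left 4 lower and 2 higher.

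Marker genes of other cell types moved with the infarct zone as well. All 8 cardiomyocyte markers were called lower against the LV, with a median fold of 0.342, as were the 8 nuclear genes of general mitochondrial function (median 0.372) and all 13 mitochondrial DNA-encoded genes (0.409). The 7 fibroblast markers (11.3), the 8 macrophage markers (3.16) and the 5 red blood cell markers (2.05) were all called higher. The macrophage markers summed to 1603 scaled CPM in the WT infarct zone and 1205 in the TKO infarct zone, against 332.3 to 604 elsewhere, and the red blood cell markers to 4845 and 5113, against 2137 to 3149. Of 5 neutrophil markers, 4 were in the table, with a summed level of 47.8 in the WT infarct zone, 24.7 in the TKO infarct zone and 2.55 to 30.47 elsewhere. *Gpx1* is abundant in macrophages and red blood cells, and the part of these cells in its rise was not tested.

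**Figure D2:**
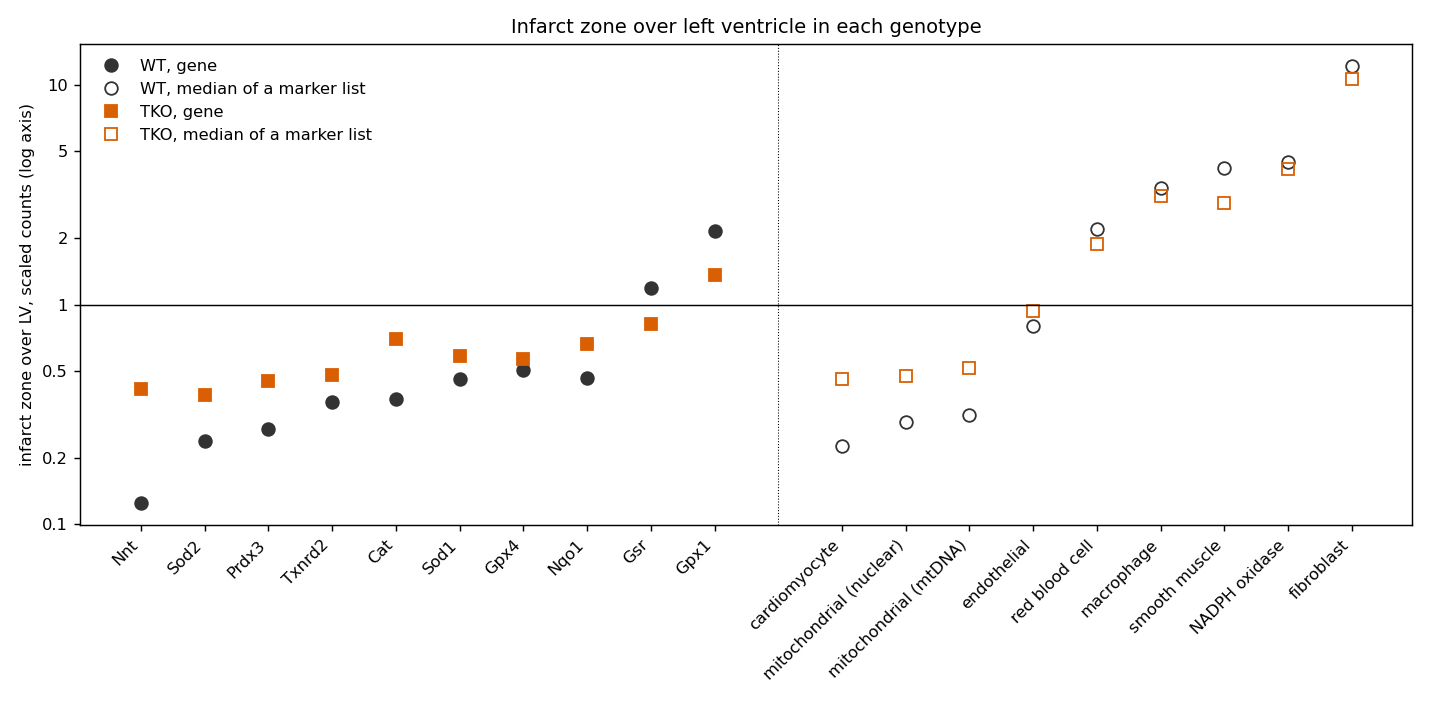
Ratio of scaled counts, infarct zone over LV (log axis), in WT (circles) and TKO (squares). Filled symbols are single genes and open symbols the medians of marker lists, each from 1 library per genotype and zone. In WT, *Nnt* (0.125), *Sod2* (0.239) and *Prdx3* (0.271) lie near the cardiomyocyte (0.228) and nuclear mitochondrial (0.293) lists or below them. *Gpx1* lies near the red blood cell list in WT (2.17 and 2.21) and below it in TKO (1.37 and 1.89).

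Measured against the 8 nuclear mitochondrial genes within the same library, which takes library scaling out of the comparison, the 4 mitochondrial members differed in proportion, most of all in WT. *Prdx3* had 4.84 counts per 100 counts of that list in the WT LV and 4.98 in the WT infarct zone, with 5.42 and 5.15 in TKO. *Sod2* had 4.66 and 4.24 in WT and 5.18 and 4.23 in TKO. Set against the LV, the infarct proportion of *Prdx3* was 1.03 times in WT and 0.949 times in TKO, and that of *Sod2* 0.91 and 0.818 times. *Txnrd2* had 0.311 and 0.424 in WT and 0.352 and 0.353 in TKO, 1.36 and 1.0 times the LV. *Nnt* had 7.35 in the WT LV and 6.17, 5.28 and 3.5 in the WT remote, border and infarct libraries, and in TKO 6.74, 6.21, 7.03 and 5.87 in the same order. Its proportion in the WT infarct zone was 0.476 times that in the WT LV, and 0.872 times in TKO.

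The other antioxidant genes fell on both sides in the infarct zone. Of 44 listed genes, 10 were higher, 22 lower and 12 not called against the LV, with a median fold of 0.662. Over all genes tested, 28.3% were higher and 28.5% lower. *Sod3*, the extracellular superoxide dismutase, rose 3.53-fold (edgeR adjusted p = 0.000259) and *Gpx3*, the secreted glutathione peroxidase, 2.96-fold (0.00107). *Prdx4*, a peroxiredoxin of the secretory pathway, rose 1.67-fold (0.00298). All 3 other glutathione peroxidases on the list, *Gpx3* among them, were higher, as *Gpx1* was. The smallest p values among the lower genes belonged to *Msrb2*, a mitochondrial methionine sulfoxide reductase (fold 0.336, adjusted p = 0.000672), *Gstk1*, a glutathione transferase of mitochondria and peroxisomes (0.256, 0.000998), and *Txn2*, the mitochondrial thioredoxin (0.397, 0.00109). Against the border and remote zones, 9 of the 44 were higher and 21 lower, where 27.7% and 26.5% of all genes tested were. *Sod3* (2.69), *Gpx3* (2.08) and *Prdx4* (1.61) again had the smallest p values among those higher, and *Msrb2* (0.433), *Glrx3* (0.559), a cytosolic glutaredoxin that handles iron-sulfur clusters, and *Glrx5* (0.50), its mitochondrial relative, among those lower. All 7 genes of the NADPH oxidase list, which belong to enzymes that make reactive oxygen species rather than remove them, were higher in the infarct zone in both comparisons, with median folds of 3.92 and 2.65.

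In the border and remote zones none of the 10 genes was called against the LV by edgeR. In the border zone 0.823% of all genes tested passed, 107 genes, and 2329 had an unadjusted p under 0.05. Of the 10 genes, 2 had such a p there, *Txnrd2* with a fold of 0.753 (unadjusted p = 0.0182, adjusted p = 0.193) and *Sod1* with 0.765 (0.0345 and 0.247). In the remote zone 0.0231% of genes passed, 3 in all with 1371 at an unadjusted p under 0.05, and none of the 10 was below it. DESeq2 called none of the 10 in either zone. Of the 44 other antioxidant genes none was called in either zone. In simulated data, edgeR called 21.7% of 1.5-fold changes for the border zone and 16.7% for the remote zone, so a gene not called may still differ.

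The genotypes were also taken apart. In the WT border zone *Nnt* stood at 0.517 times the LV (95% counting interval 0.502 to 0.533), and in the TKO border zone at 0.931 times (0.905 to 0.957). The remote values were 0.679 (0.660 to 0.698) in WT and 0.851 (0.828 to 0.876) in TKO. *Nnt* was the only one of the 10 genes past 1.5-fold in the WT border zone, where 19.1% of all genes were past it. *Nqo1* was above the LV in each of the 4 cases, at 1.34 in both the WT border and the WT remote zone, and at 1.18 and 1.23 in the TKO border and remote zones. In the TKO remote zone *Gsr* was the one gene past 1.5-fold, at 0.629 (0.562 to 0.705), against 13.2% of all genes. In the WT remote and TKO border zones none of the 10 was past 1.5-fold, where 14.7% and 15.8% of all genes were.

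Against the LV of its own genotype, the WT infarct zone had 9 of the 10 genes past 1.5-fold, with 54.5% of all genes past it, and the TKO infarct zone had 7, with 46.8%. *Nnt* stood at 0.125 (0.120 to 0.131) in WT and 0.414 (0.401 to 0.428) in TKO. *Cat* was at 0.370 (0.356 to 0.385) in WT and 0.696 (0.669 to 0.724) in TKO. *Gpx1* was at 2.17 (2.05 to 2.30) in WT and 1.37 (1.29 to 1.45) in TKO. The median over the 10 genes was 0.413 in WT and 0.574 in TKO, beside 1.01 over all genes in both. With total counts these medians were 0.735 and 0.834, beside 1.8 and 1.47 over all genes, and *Nnt* stood at 0.223 and 0.601, *Cat* at 0.658 and 1.01 and *Gpx1* at 3.86 and 1.99. The cardiomyocyte list moved the same way, with medians of 0.228 in WT and 0.46 in TKO. Its part in the difference was not tested.

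Whether the absence of TIGAR went with a different level of these genes across the heart was tested over the 4 regions, with region as a block, by edgeR's quasi-likelihood test. None of the 10 genes was called, where 0.185% of all genes tested were, 24 in all with 2108 at an unadjusted p under 0.05. DESeq2 called none of the 10 either. *Txnrd2* had the smallest p of the 10, with a TKO over WT fold of 1.23 (log2 0.30 ± 0.0938, adjusted p = 0.23). *Sod2* followed with 1.28 (log2 0.35 ± 0.137, adjusted p = 0.287), and both were higher in TKO in 4 of 4 regions. *Nnt* had the highest fold, 1.47 (log2 0.56 ± 0.283, adjusted p = 0.372), and was lower in TKO in the LV. *Prdx3*, also higher in TKO in 4 of 4 regions, stood at 1.25 (adjusted p = 0.346). The other 6 genes lay between 0.905 and 1.11 with adjusted p values of 0.571 or more. In the same fit the median fold was 1.3 for the cardiomyocyte markers and 1.22 for the nuclear mitochondrial list. It was 0.802 for the macrophage and 0.727 for the fibroblast markers, and the part of these cells was not tested. None of the 44 other antioxidant genes was called in this test. In simulated data, edgeR called 50% of 1.5-fold changes between genotypes, so a gene not called may still differ. The regions stand in for replicates in this test, and the sources used here do not say whether 1 heart gave more than 1 region.

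Within the infarct zone, 8 of the 10 genes were above 1 in TKO over WT, as were 6604 of the 12999 genes tested. The ratio was 2.96 for *Nnt* (2.82 to 3.11), 1.82 for *Prdx3* (1.74 to 1.91), 1.76 for *Sod2* (1.68 to 1.85) and 1.52 for *Cat* (1.46 to 1.59). These 4 were past 1.5-fold, as were 16.6% of all genes tested. On the higher side alone the share was 10.2% of all genes tested. *Txnrd2* was at 1.47 (1.25 to 1.74), *Nqo1* at 1.39 (1.28 to 1.51), *Gpx4* at 1.30 (1.27 to 1.33) and *Sod1* at 1.24 (1.19 to 1.29). *Gpx1* and *Gsr* were below 1, at 0.768 (0.735 to 0.802) and 0.878 (0.801 to 0.962). The median of the 10 was 1.43, beside 1.0 for all genes tested. The median of the 4 mainly mitochondrial genes *Sod2*, *Prdx3*, *Txnrd2* and *Nnt* was 1.79. That of the other 6, which include the partly mitochondrial *Gpx1*, *Gpx4* and *Gsr*, was 1.27.

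Cell type markers differed between the infarct libraries too. All 8 cardiomyocyte markers were past 1.5-fold higher in TKO, with a median ratio of 2.04, and the nuclear mitochondrial list had a median of 1.67 and the mitochondrial DNA-encoded genes 1.59. The macrophage markers had a median of 0.740, the fibroblast markers 0.818, the smooth muscle markers 0.554, the red blood cell markers 1.05 and the endothelial markers 1.19. The 44 other antioxidant genes had a median of 1.09, and the 7 NADPH oxidase genes 0.696. The part of these cell types in the ratios of the 10 genes was not tested. Per count of the nuclear mitochondrial list, TKO stood over WT in the infarct libraries by a ratio of 1.03 for *Prdx3*, 0.998 for *Sod2* and 0.834 for *Txnrd2*, whereas that of *Nnt* was 1.68. Per count of the cardiomyocyte list it was 1.34 for *Nnt* and below 1 for the other 9, from 0.347 for *Gpx1* to 0.823 for *Prdx3*.

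**Figure D3:**
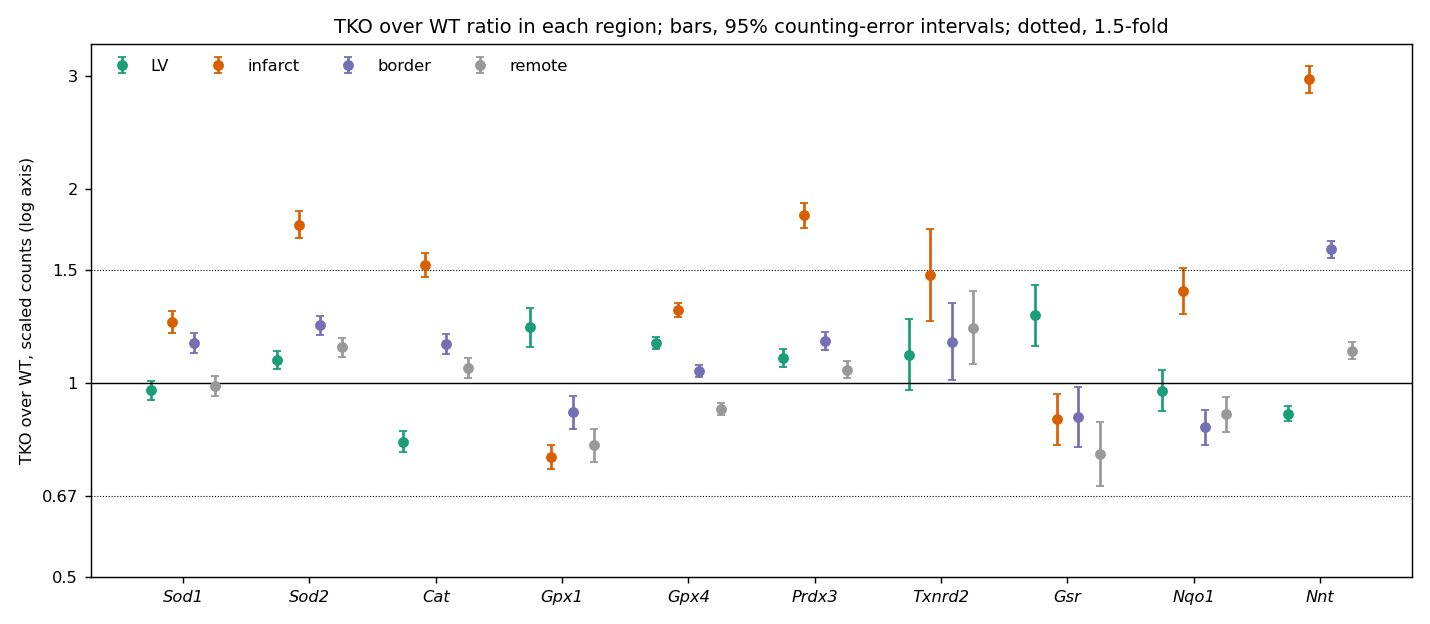
TKO over WT ratio of scaled counts (log axis) of each gene in the LV, infarct, border and remote libraries; points are ratios of 1 TKO to 1 WT library, bars are 95% intervals for counting error only, and dotted lines mark 1.5-fold. The infarct ratios of *Nnt* (2.96), *Prdx3* (1.82), *Sod2* (1.76) and *Cat* (1.52) and the border ratio of *Nnt* (1.61) lie above the upper line.

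Total counts alone lowered the infarct ratios, with the median of all genes at 0.820. *Nnt* was then at 2.42, *Prdx3* at 1.49, *Sod2* at 1.44, *Cat* at 1.24 and *Sod1* at 1.01, and *Gpx1* was at 0.626, past 1.5-fold in the other direction.

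In the border zone *Nnt* alone was past 1.5-fold, at 1.61 (1.56 to 1.66), where 12.4% of all genes were, 3.77% on the higher side. *Sod2* was at 1.23 there and the other 8 genes between 0.854 (*Nqo1*) and 1.16. The cardiomyocyte markers had a median of 1.29 in the same libraries and the fibroblast markers one of 0.559. In the remote zone none of the 10 was past 1.5-fold, against 9.99% of all genes, with a range from 0.777 (*Gsr*) to 1.22 (*Txnrd2*). In the LV none was, against 15.1%. The LV ratios ran from 0.811 (0.782 to 0.841) for *Cat* to 1.27 (1.14 to 1.42) for *Gsr*, and *Nnt* stood at 0.896 (0.872 to 0.920).

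A genotype by infarct term in edgeR asked whether the TKO over WT ratio was another one in the infarct zone than elsewhere. None of the 10 genes was called, and 0.00769% of all genes were, 1 gene with 1026 at an unadjusted p under 0.05. Of the 10 genes, 5 were below that unadjusted p. *Nnt* had the highest departure, 2.52-fold (log2 1.33 ± 0.345, adjusted p = 0.407). *Prdx3* followed with 1.65-fold (adjusted p = 0.387), and *Sod2*, *Nqo1* and *Cat* each stood at 1.53-fold (adjusted p = 0.402, 0.401 and 0.598). DESeq2 called 3 of the 10, *Nnt* (adjusted p = 0.00382), *Prdx3* (0.00757) and *Sod2* (0.0321), among 288 genes, 13.3% of the 2162 to which it gave an adjusted p. In edgeR without the LV libraries, 3 were called, *Nqo1* (0.00738), *Prdx3* (0.00815) and *Sod2* (0.0197), among 828 genes, 6.31% of those tested. None of the 44 other antioxidant genes was called for this term, which rests on 1 TKO and 1 WT infarct library. DESeq2 gave no adjusted p to *Txnrd2*, *Gsr* or *Nqo1*, and all of its calls over all genes were higher. In simulated data, edgeR called 2% of 1.5-fold and 25.5% of 2-fold changes for this term, so a gene not called may still differ.

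*Nnt* carries a limit of its own. C57BL/6J mice have a deletion inside *Nnt* that C57BL/6N mice lack, and the strain of the WT and TKO mice is not given in the sources used here. Counts per gene do not show which exons were read. The GENCODE M21 annotation of GRCm38 also has a second *Nnt* record (ENSMUSG00000116207), whose exons share up to 879 bases with those of the record used here, and how reads that fit both were divided is not given in the sources used here. In the LV, *Nnt* had 416.3 scaled CPM in WT and 372.9 in TKO, the one region in which WT was the higher.

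Ratios between 2 genes of the same library do not depend on library scaling. *Gpx1* over *Gpx4*, in counts per kilobase, was 0.0883 in the WT LV and 0.380 (0.368 to 0.393) in the WT infarct zone, with 0.0932 and 0.225 (0.217 to 0.234) in TKO. The border and remote values lay between 0.101 and 0.122. *Gpx1* over *Prdx3* was 0.285 in the WT LV and 2.29 (2.19 to 2.39) in the WT infarct zone, against 0.318 and 0.964 (0.922 to 1.01) in TKO, and the WT infarct zone was the only one of the 8 libraries with a ratio above 1. *Nnt* over *Gsr*, the NADPH maker set against the glutathione reductase that spends NADPH, was 14.6 in the WT LV and 9.60, 6.99 and 1.54 (1.43 to 1.66) in the WT remote, border and infarct libraries. In TKO it was 10.3, 13.9, 12.7 and 5.20 (4.83 to 5.6) in the same order. In WT the ratio was lower at each step from the LV through the remote and border zones to the infarct, whereas in TKO the LV lay below the remote and border zones.

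**Figure D4:**
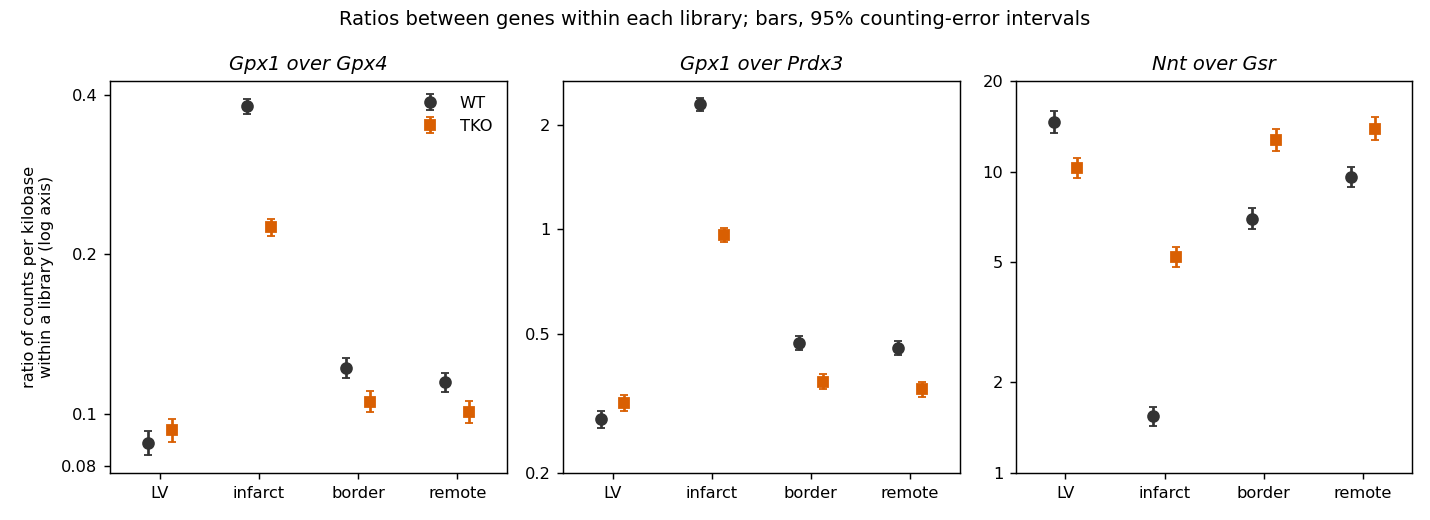
Ratio of counts per kilobase between 2 genes of the same library (log axes) for *Gpx1* over *Gpx4*, *Gpx1* over *Prdx3* and *Nnt* over *Gsr* in the LV, infarct, border and remote libraries; circles are WT, squares TKO, and bars are 95% intervals for counting error only. The WT infarct zone is the highest point in the first panels (0.380 and 2.29) and the lowest in the last (1.54).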

How the data were processed

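Each genotype and region had 1 RNA library, from WT or TKO hearts. The authors trimmed reads with Trim Galore 0.6.5, quantified transcripts with kallisto 0.46 against mm10 (GRCm38), and made gene totals with tximport. Their deposited table holds estimated counts as whole numbers, without normalization, and the authors' own comparisons used edgeR 3.34.1. Here, library sizes were scaled by TMM in edgeR 4.0.16 (R 4.3.3). The 12999 genes whose CPM averaged at least 1 over the 8 libraries were tested by quasi-likelihood in edgeR, adjusted by Benjamini-Hochberg, in a model of region and genotype (3 residual degrees of freedom) or with a genotype by infarct term (2 residual degrees of freedom). Replicates of separate mice were not at hand, so p-values measure only the spread between these libraries, which may in part be technical. In the model of region and genotype, that spread also holds any genotype difference that varied between regions. Ratios of 2 libraries carry exact Clopper-Pearson intervals and no test, and a ratio of at least 1.5 or at most its inverse counts as past 1.5-fold. The fits were tested on simulated data with known changes. Gene positions, selenocysteine codons and transcript lengths (the annotated principal coding transcript) came from GENCODE M21, and promoters from RefSeq, both of GRCm38. All 10 genes had a position, and 8 of them a promoter window.

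The 10 genes and all gene lists were chosen with earlier results of these data known. All 10 genes are named. Of the 44 other antioxidant genes, the 3 called with the smallest p in each direction of each comparison are named, and *Tigar* as the check of the labels. The alternatives were DESeq2 1.42.0 with its size factors, total counts, no mitochondrial DNA-encoded genes, no filter on low counts, a 2-fold limit and each library or region left out. Figures used matplotlib 3.10.9 in Python 3.11.15 with pandas 2.3.3.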

Additional observations from a re-analysis of the deposited data

Results flagged for a closer look

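In 3 cases the zone over LV ratio lay on opposite sides of 1 in the genotypes, with both counting intervals clear of 1. *Gsr* in the infarct zone stood at 1.19 (1.07 to 1.31) in WT and 0.817 (0.739 to 0.904) in TKO. *Cat* in the remote zone stood at 0.820 (0.792 to 0.849) in WT and 1.07 (1.03 to 1.11) in TKO. *Gpx4* in the remote zone stood at 1.12 (1.10 to 1.14) in WT and 0.882 (0.864 to 0.901) in TKO. Each ratio comes from 1 library per zone and shares its LV library with the other zones of the same genotype. With total counts *Gsr* in the infarct zone stood above 1 in both genotypes, at 2.11 and 1.19, and so was no longer on opposite sides. The difference between genotypes in each of these 3 cases was not tested. In all 3 cases the order of the genotypes in the LV was the reverse of that in the zone. In the LV, TKO was the higher for *Gsr* and *Gpx4* and the lower for *Cat*.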

How the results depend on the processing

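The total number of the 10 genes called in a comparison, both directions together, stayed within 1.5 times of the value given, except for the genotype by infarct term, with 0 in edgeR, 3 in DESeq2 and 0 to 3 when a region was left out. By direction, total counts gave 4 lower and 2 higher in place of 8 and 1 in both infarct comparisons. Leaving out single libraries gave 8 to 9 genes for infarct against LV and 7 to 9 for infarct against border and remote zones, and 0 for the border zone, the remote zone and the genotype across regions. With a 2-fold limit in place of 1.5-fold, 1 gene was past it in TKO over WT for infarct and 0 for border, 0 for the WT border zone over LV, 4 for the TKO infarct zone over LV and 0 for the TKO remote zone over LV. With total counts these became 2 for TKO over WT in the infarct zone, 2 and 1 for the WT border and remote zones over LV and 4 for the TKO infarct zone over LV. Fitted log2 changes that turned sign were none of them called in the analysis reported. With total counts they were *Nqo1* across genotypes (-0.094), *Gsr* in infarct against LV (0.64) and *Gpx4* in the border (0.018) and remote (0.038) zones, and with no filter *Gpx4* in the remote zone (0.0057). With 1 library or region left out, the lowest and highest were -0.016 and 0.30 for *Cat* and -0.15 and 0.087 for *Nqo1* across genotypes, and -0.32 and 0.27 for *Gsr* in infarct against LV. In the border zone they were -0.51 and 0.089 for *Cat*, -0.031 and 0.54 for *Gpx1* and -0.45 and 0.14 for *Gsr*. In the remote zone they were -0.39 and 0.20 for *Cat*, -0.0475 and 0.52 for *Gpx1*, -0.18 and 0.16 for *Gpx4* and -0.84 and 0.12 for *Nnt*. For *Gsr* in the genotype by infarct term they were -0.27 and 0.082. The cause was not tested. Over all genes, the calls across genotypes numbered 24 in edgeR, 342 in DESeq2, 146 with total counts and 3 to 107 with a region left out. They numbered 107, 576 and 361 for the border zone and 3, 162 and 18 for the remote zone, with 1 to 467 and 0 to 85 when a library was left out, and 1 and 288 in edgeR and DESeq2 for the genotype by infarct term. No paired analysis was possible because the labels give no replicate numbers. With 1 library per genotype and region, differences between mice were not measured.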

Other observations

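The NADPH oxidase list holds 7 genes, mostly of the phagocyte oxidase that makes superoxide. They summed to 66.19, 284.3, 107.5 and 92.08 scaled CPM in the WT LV, infarct, border and remote libraries and to 64.4, 197.3, 76.42 and 69.91 in the TKO libraries. Set over WT, the TKO libraries had list medians of 0.789, 0.696, 0.625 and 0.759 in the same order of regions. The macrophage markers had medians of 0.866, 0.740, 0.818 and 0.773 and the neutrophil markers 0.907, 0.525, 0.214 and 0.305 in those libraries, and their part was not tested. None of the 7 was called across genotypes in edgeR. *Nox4*, which encodes an oxidase that yields mostly hydrogen peroxide, was named after its values were seen. It had 55, 3060, 570 and 227 counts in WT and 41, 1739, 162 and 112 in TKO. Its infarct over LV fold was 34.2 (edgeR adjusted p = 0.000352), and its TKO over WT fold across regions was 0.510 (adjusted p = 0.182). In the border libraries *Nox4* had a ratio of 0.295, the median of the fibroblast markers was 0.559, and the part of these cells was not tested.

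In the LV, 3 of the 4 listed haem and metal genes, also named after their values were seen, were past 1.5-fold lower in TKO, as were 1191 of the 12999 genes tested. The TKO over WT ratio was 0.250 for the metallothionein gene *Mt2* (95% counting interval 0.223 to 0.280), 0.462 for *Mt1* (0.440 to 0.484) and 0.566 for *Hmox1*, which encodes haem oxygenase 1 (0.504 to 0.635). The fourth gene, *Hmox2*, stood at 1.23 (1.145 to 1.317). Over the 44 other antioxidant genes, 6 were past 1.5-fold lower in TKO in the LV, and 1 was past it higher, at 2.81. In the infarct zone *Mt2*, *Mt1* and *Hmox1* stood at 0.938, 1.23 and 0.956. In the border zone these 3 ratios were 0.627, 0.983 and 1.09, and in the remote zone 0.562, 0.986 and 1.045. The adipocyte markers, 30.72 scaled CPM in the WT LV and 0.541 in the TKO LV, differed between the same libraries, and their part was not tested. None of the 3 was called across regions (adjusted p = 0.274, 0.67 and 0.621).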
